A study of Mus musculus with 8 samples.

Results

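A total of 775 mouse protein-coding genes carried summits of V5-tagged ZGLP1 at both of their ends. They were selected on the measured summit positions themselves, as genes longer than 2 kb on chromosomes 1 to 19 and X with at least 1 summit within 1 kb of the start and at least 1 within 1 kb of the end. They were 4.04% of the 19190 genes of that length, while 10453 genes (54.5%) had a summit at 1 end only and 7962 had one at neither end. Because summits chose these genes, the count and the summit distances are given as a description with no test.

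The series used chromatin immunoprecipitation with an anti-V5 antibody, followed by sequencing (ChIP-seq), in mouse cells that overexpressed V5-tagged Zglp1. PGCLCs (primordial germ cell-like cells induced in culture from embryonic stem cells, ESCs) were sorted as SC+ and mCherry+ on culture day 7 (c7) or 8 (c8). They had received either doxycycline (Dox) and retinoic acid (RA) or Dox alone from c3, and ESCs sorted as mCherry+ had received Dox and RA for 24 h. There were 5 ChIP libraries, c7 and c8 PGCLCs with Dox and RA, c7 and c8 PGCLCs with Dox, and ESCs with Dox and RA, and 3 inputs from c8 PGCLCs with Dox and RA, c8 PGCLCs with Dox, and ESCs with Dox and RA. All cells had the C57BL/6 x DBA2 background, all carried the tagged transgene and all received Dox, so no group lacked induced ZGLP1. Each group had 1 library. The deposited summits form a single list of 32927 positions that names no library and gives no height, so no value could be given per sample, treatments and cell types could not be compared, and how many reads stood behind a summit was unknown.

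ZGLP1 is a nuclear protein with GATA-like zinc fingers, and the title of the study ties it to the oogenic fate, the entry of fetal germ cells into oocyte development. In ChIP-seq a summit marks the point of highest read pile-up within a peak, close to where the protein or its partners touch DNA. Transcription starts usually hold the promoter of a gene, often within a CpG island, whereas the gene end lies where the transcript is cleaved and polyadenylated. A summit at a gene end can therefore belong to that gene, to a promoter of the next gene or to a distal element that happens to lie there, and positions alone do not separate these.

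Direction was needed to tell start from end. It was available from RefSeq promoter windows (GRCm38.p6, 250 bases before to 50 after each start) for 15243 of the 19190 genes and for 621 of the 775 both-end genes, which is 4.07% of the genes of known direction. Statements on starts and ends below use these genes. For the remaining 154 both-end genes the lower and the upper coordinate stand in for start and end.

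Windows with a summit are shown here for 5 both-end genes, with 21 bases around the summit in capitals. Slc25a16, a mitochondrial solute carrier gene, is shown at its own start (chr10:62920383-62920682, plus strand, summit 31 bases past the start) together with the promoter that faces its end. That is the promoter of Dna2, a nuclease and helicase of DNA replication (chr10:62946779-62947078, plus strand, summit 4 bases before the start). The third is the promoter of Hsd3b7, an enzyme gene of bile acid synthesis, at the end of Setd1a, a gene of a histone H3 lysine 4 methyltransferase (chr7:127800359-127800658, plus strand, summit 50 bases before the start). The last 3 are own starts of a pluripotency gene, a homeobox gene and a germ cell gene whose ends have no other gene near. They are Nanog (chr6:122707239-122707538, plus strand, summit 132 bases before the start), Gbx2 (chr1:89931127-89931426, minus strand, summit 12 bases before the start) and Tex19.1 (chr11:121145893-121146192, plus strand, summit 134 bases before the start). CpG observed over expected, the number of CG dinucleotides set against that predicted from C and G content, was 0.792 at Slc25a16, 1.03 at Dna2, 0.120 at Hsd3b7, 0.192 at Nanog, 0.861 at Gbx2 and 0.575 at Tex19.1. None of the 6 printed windows held a GATA hexamer, which here means AGATAA, the form AGATAG that closes with another letter, the form TGATAA that opens with another letter, or the form TGATAG that differs at both places, on either strand. A second RefSeq window of Nanog (chr6:122707315-122707614, plus strand), which holds the same summit, did hold AGATAG. These windows were picked as examples and run from CpG-dense to CpG-poor, with only the Dna2 and Hsd3b7 windows at ends. They do not give the shares over all both-end genes, which follow below.
Slc25a16 own start: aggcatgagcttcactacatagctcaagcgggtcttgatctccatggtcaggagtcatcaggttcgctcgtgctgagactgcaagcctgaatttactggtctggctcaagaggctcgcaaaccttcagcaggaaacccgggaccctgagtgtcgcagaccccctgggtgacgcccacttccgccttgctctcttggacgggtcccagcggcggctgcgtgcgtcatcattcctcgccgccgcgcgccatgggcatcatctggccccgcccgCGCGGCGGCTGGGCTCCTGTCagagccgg
Dna2 at the end of Slc25a16: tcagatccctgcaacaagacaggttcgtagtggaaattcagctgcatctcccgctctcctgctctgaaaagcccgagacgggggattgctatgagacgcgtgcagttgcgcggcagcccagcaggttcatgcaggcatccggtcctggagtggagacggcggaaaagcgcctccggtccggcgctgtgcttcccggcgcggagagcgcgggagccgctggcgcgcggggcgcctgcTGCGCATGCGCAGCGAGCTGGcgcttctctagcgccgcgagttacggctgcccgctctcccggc
Hsd3b7 at the end of Setd1a: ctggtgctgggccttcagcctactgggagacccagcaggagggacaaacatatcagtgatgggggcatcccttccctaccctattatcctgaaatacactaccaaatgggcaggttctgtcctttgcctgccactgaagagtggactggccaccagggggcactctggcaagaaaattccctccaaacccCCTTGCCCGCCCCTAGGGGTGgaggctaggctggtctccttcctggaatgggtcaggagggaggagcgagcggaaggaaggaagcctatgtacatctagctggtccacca
Nanog own start: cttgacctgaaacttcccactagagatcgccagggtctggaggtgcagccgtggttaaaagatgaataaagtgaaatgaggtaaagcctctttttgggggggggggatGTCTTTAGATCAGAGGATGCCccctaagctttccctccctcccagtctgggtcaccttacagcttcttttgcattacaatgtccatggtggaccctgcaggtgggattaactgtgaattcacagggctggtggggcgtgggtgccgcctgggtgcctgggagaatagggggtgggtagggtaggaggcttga
Gbx2 own start: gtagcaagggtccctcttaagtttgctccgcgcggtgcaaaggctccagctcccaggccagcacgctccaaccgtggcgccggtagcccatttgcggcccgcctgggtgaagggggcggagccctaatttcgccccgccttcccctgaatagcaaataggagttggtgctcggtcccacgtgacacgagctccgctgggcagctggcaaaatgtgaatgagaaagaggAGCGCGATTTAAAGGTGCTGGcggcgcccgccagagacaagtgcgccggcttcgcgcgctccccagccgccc
Tex19.1 own start: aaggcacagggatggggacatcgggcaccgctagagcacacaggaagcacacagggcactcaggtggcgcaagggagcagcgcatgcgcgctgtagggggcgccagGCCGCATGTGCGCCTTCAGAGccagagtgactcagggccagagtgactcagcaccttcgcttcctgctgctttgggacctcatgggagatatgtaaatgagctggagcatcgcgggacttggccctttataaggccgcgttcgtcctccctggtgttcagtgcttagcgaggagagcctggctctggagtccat

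The start was the common site of ZGLP1 summits and the end a rare one. Among 1-end genes of known direction, 8108 of 8388 (96.7%, exact 95% binomial interval 96.3 to 97.0) had the summit at the start and 280 at the end. Over all 15243 genes, 8729 (57.3%) had a start summit and 901 (5.91%) an end summit. An end summit was present in 621 of 8729 genes with a start summit (7.11%, 6.58 to 7.67) and in 280 of 6514 genes without one (4.30%, 3.82 to 4.82). The product of the start share and the end share is 3.38%, beside the 4.07% observed in these genes. The product of the shares at the lower and the upper coordinate is 9.78%. It covers all 19190 genes and mixes starts with ends, so it cannot be set against the 4.07%. Both products come from the summits that chose the genes and are no test. Intervals here and below cover counting error only and treat genes as separate, although neighbours can share a summit.

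Both-end genes also carried more summits at the start than at the end. At the start, 416 of the 621 genes had 1 summit, 184 had 2 and 21 had 3 or more. At the end, 543 had 1, 75 had 2 and 3 had 3 or more. The 775 genes drew on 1806 distinct summits at their ends.

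Start summits sat on the start in both-end genes much as in start-only genes, but end summits were spread out and displaced. The closest start summit lay a median of 36 bases downstream of the start in both-end genes (median distance without sign 145 bases, n = 621) and 56 bases downstream in start-only genes (134 bases, n = 8108). Within 250 bases of the start lay 69.2% of these summits in both-end genes and 73.4% in start-only genes. The closest end summit of both-end genes lay a median of 284 bases past the gene end (500 bases without sign), and only 21.4% lay within 250 bases of it. On the gene side of the end lay 34.0% (30.3 to 37.9) of them, against 49.3% (43.3 to 55.3) in the 280 end-only genes. Which side an end summit took went with what was annotated there. Where the start of another gene lay within 1 kb of the end, the closest summit was a median of 378 bases past the end and on the gene side in 16.4% of 214 genes. Where no other gene end and no further own start lay within 1 kb, the median was 3 bases past the end and the gene side held 50.0% of 258 genes.

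**Figure D1:**
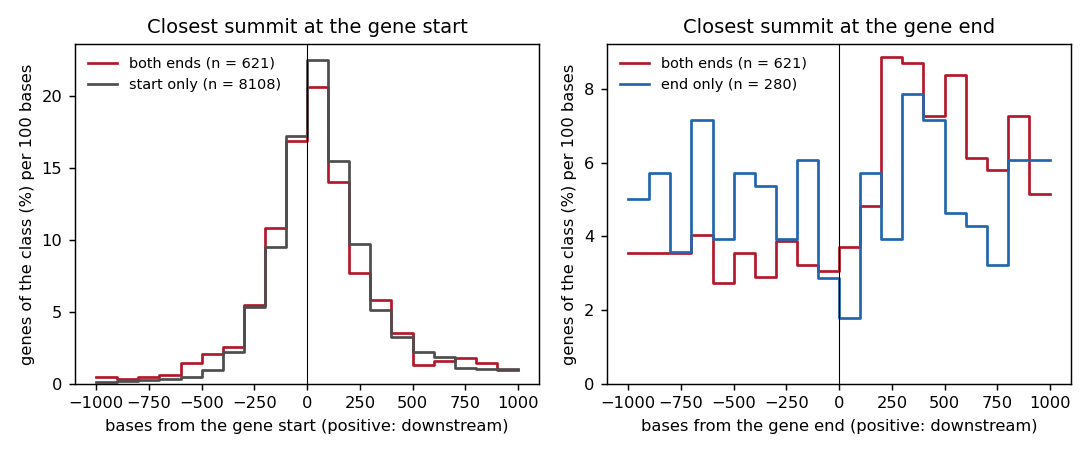
Signed distance in bases of the closest summit from the gene start (left) and the gene end (right), as the percent of genes per 100 bases, for both-end genes (n = 621) beside start-only genes (n = 8108) and end-only genes (n = 280). Start summits peak at the start in both classes, whereas end summits of both-end genes have no peak at the end and gather past it, with a median of 284 bases.

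The ends of both-end genes were crowded with other genes. Another annotated gene began or ended within 1 kb of the gene end in 363 of 621 both-end genes (58.5%, 54.5 to 62.4), in 1651 of 8388 1-end genes (19.7%, 18.8 to 20.6) and in 2727 of all 15243 genes (17.9%). The difference was carried mostly by starts. The start of another gene lay there in 214 both-end genes (34.5%, 30.7 to 38.3), against 192 of 8108 start-only genes (2.37%, 2.05 to 2.72) and 87 of 280 end-only genes (31.1%, 25.7 to 36.9). The end of another gene lay there in 17.1% (14.2 to 20.3) of both-end genes and 12.6% (11.9 to 13.3) of start-only genes. A further annotated start of the gene itself lay there in 0 of the 621, which allows a share of up to 0.592% by the exact interval.

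Turned round, a nearby start went with an end summit whether or not the gene's own start was bound. With the start of another gene within 1 kb of the end, 214 of 406 genes with a start summit (52.7%, 47.7 to 57.7) and 87 of 188 without one (46.3%, 39.0 to 53.7) had an end summit. With another gene end but no start there, the shares were 8.16% of 1091 genes with a start summit and 7.19% of 459 without. With only genes of unknown direction there, they were 15.7% of 382 and 7.46% of 201. With nothing else annotated there, they were 258 of 6850 genes with a start summit (3.77%, 3.33 to 4.24) and 143 of 5639 without (2.54%, 2.14 to 2.98).

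**Figure D2:**
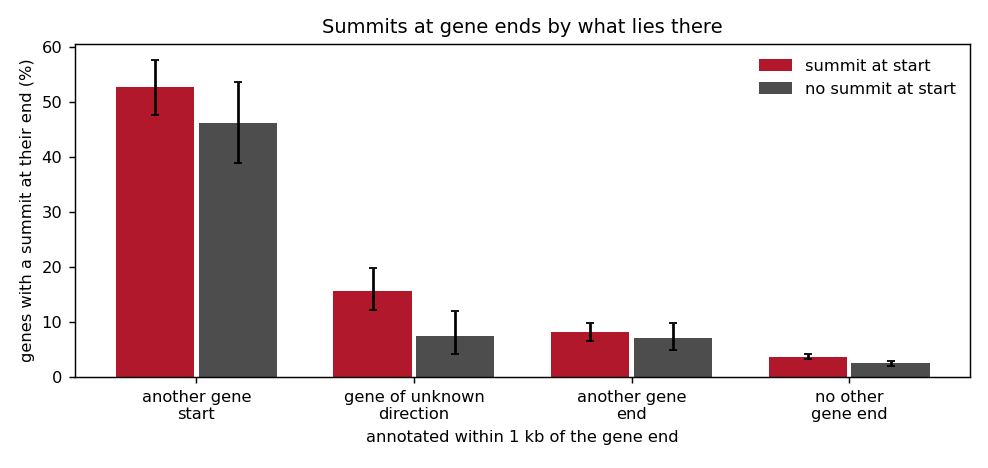
Percent of genes with a summit within 1 kb of their end, by what the annotation holds within 1 kb of that end, for genes with and without a summit at their own start; bars start at 0 and error bars are exact 95% binomial intervals. The pair of bars at another gene start stands at 52.7% and 46.3%, against 3.77% and 2.54% where no other gene end lies near.

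Where another gene began near the end, a summit mostly lay closer to that start than any did to the gene end. In the 214 genes the summit closest to the start of the nearest such neighbour lay a median of 131 bases from it. The summit closest to the gene end lay a median of 439 bases from that end, and it can be a different summit. The first distance was the smaller in 183 (85.5%). The neighbour was protein-coding in 202, pointed in the same direction in 192 and began past the end of the both-end gene in 199, by a median of 373 bases. At the end of Gtf3c6, a subunit gene of RNA polymerase III factor TFIIIC, the summit lay 611 bases past the end and 51 bases from the start of Rpf2, a ribosome assembly gene. At the end of Eef2, the gene of translation elongation factor 2, it lay 446 bases past the end and 32 bases from the start of Dapk3, a kinase gene. At the end of H1f0, a linker histone gene, it lay 327 bases past the end and 43 bases from the start of Gcat, an enzyme gene of threonine breakdown. At the end of Mideas, a gene for a subunit of a histone deacetylase complex, it lay 671 bases past the end and 8 bases from the start of Pnma1. At the end of Slc25a16 it lay 531 bases past the end, in the Dna2 window printed above. Atrip, the partner of the checkpoint kinase ATR, ran the other way, with its summit 19 bases inside its end and 43 bases from the start of Trex1, an exonuclease gene.

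The neighbours' promoters differed in CpG content between genes with and without an end summit. Among neighbours with a promoter window, median CpG observed over expected was 0.720 (95% interval of the median 0.662 to 0.758, n = 204) at the ends of both-end genes and 0.268 (0.236 to 0.370, n = 140) at the ends of start-only genes. It exceeded 0.6 in 66.2% (59.2 to 72.6) at both-end genes and 21.4% (14.9 to 29.2) at start-only genes. At end-only genes the median was 0.713 (n = 82) and at genes with a summit at neither end it was 0.262 (n = 79). Protein-coding neighbours made up 94.1% at both-end genes and 72.1% at start-only genes. The Dna2 window above is of the CpG-dense kind and the Hsd3b7 window of the CpG-poor kind.

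Neighbouring both-end genes could share a summit. Of the 775 genes, 182 (23.5%) shared an end summit with another both-end gene, in 65 groups of 2, 16 groups of 3 and 1 group of 4. Among the 69 pairs with both directions known, 37 shared a summit only between the end of one gene and the start of the other, 26 only between their ends and 3 only between their starts. One group of 3, chosen for description after its values were seen, holds Zglp1 itself. On the minus strand of chromosome 9, Raver1 (chr9:21074158-21091999, a gene for an RNA-binding cofactor of splicing) is followed by Fdx2 (chr9:21067512-21073531, a mitochondrial ferredoxin gene) and by Zglp1 (chr9:21062393-21067093). The summit 708 bases past the end of Raver1 was the one 81 bases past the start of Fdx2, and the summit 507 bases past the end of Fdx2 was the one 88 bases past the start of Zglp1. Zglp1 had a second summit 891 bases past its start and an end summit 260 bases inside its end, with no other gene end within 1 kb of that end. The cells also carried the tagged Zglp1 transgene, and its reads could map to this gene; their part in these summits was not tested. Other groups of 3, likewise chosen after their values were seen, were Rec8, Ipo4 and Tm9sf1 on chromosome 14, Nop2, Iffo1 and Gapdh on chromosome 6, and Nfkbie, Slc35b2 and Hsp90ab1 on chromosome 17.

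Away from other genes, the gene end held few summits, at a share whose interval overlapped those of points within the same genes. This was read in genes longer than 10 kb with a start summit, at points with no other gene end and no further own start within 1 kb. A summit lay within 1 kb of the gene end in 160 of 5488 such genes (2.92%, 2.49 to 3.40), of the middle in 170 of 6431 (2.64%, 2.27 to 3.07) and of the point 4 kb inside the end in 156 of 6437 (2.42%, 2.06 to 2.83). At the point 4 kb past the end it was 257 of 5605 (4.59%, 4.05 to 5.17). The first 3 intervals overlap and the last lies above them. In genes without a start summit the shares were 1.96% at the end, 1.33% at the middle, 2.37% at 4 kb inside and 2.49% at 4 kb past it.

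Both-end genes were short beside genes bound at the start alone, but not beside genes bound at the end alone. Their median length was 11628 bases (quartiles 5688 and 27643, n = 775), against 24513 bases (10752 and 57776, n = 10453) in 1-end genes and 21324 bases in all genes. Lengths up to 5 kb made up 20.6% of both-end genes and 9.87% of 1-end genes, and lengths over 100 kb made up 4.13% (32 genes) of both-end genes and 13.5% of 1-end genes. Among genes of known direction the median was 11977 bases (10697 to 13481, n = 621) in both-end genes, 10143 bases (8562 to 12060, n = 280) in end-only genes and 25145 bases (24397 to 25904, n = 8108) in start-only genes. Up to 5 kb lay 20.1% of both-end genes, 25.4% of end-only genes and 9.13% of start-only genes. The share of genes with an end summit fell with length. Among genes with a start summit it was 14.5% from 2 to 5 kb, 11.7% from 5 to 10 kb, 8.56% from 10 to 20 kb, 4.96% from 20 to 50 kb and 3.36% over 50 kb. Without a start summit it was 7.02%, 5.84%, 4.57%, 3.45% and 1.86% in the same classes. The intervals of genes with and without a start summit lay apart up to 20 kb and overlapped above. The order by length held at ends with no other gene near, from 9.16% in the shortest class to 2.16% in the longest with a start summit.

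**Figure D3:**
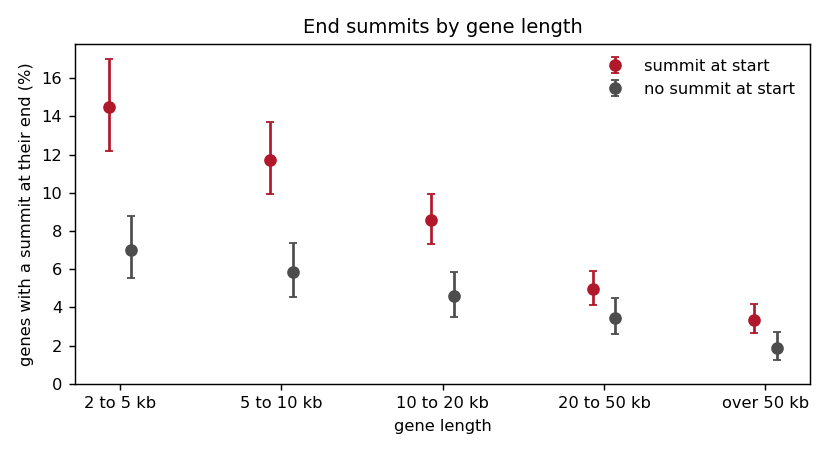
Percent of genes of known direction with a summit within 1 kb of their end, by gene length class, with exact 95% binomial intervals, for genes with and without a summit at their own start. Both series fall with length, from 14.5% to 3.36% with a start summit and from 7.02% to 1.86% without, and the series with a start summit is the higher in each class.

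Further summits inside the gene, more than 1 kb from both ends, went with end summits. At least 1 was present in 249 of 621 both-end genes (40.1%, 36.2 to 44.1) and 2858 of 8108 start-only genes (35.2%, 34.2 to 36.3), although the both-end genes were shorter. Within each length class the share was higher in both-end genes. In both-end genes it was 26.4% from 2 to 5 kb, 32.4% from 5 to 10 kb, 34.0% from 10 to 20 kb, 48.0% from 20 to 50 kb and 74.1% over 50 kb. In start-only genes it was 13.9%, 23.3%, 26.6%, 33.9% and 54.8% in the same classes. The intervals lay apart in the shortest class and in the classes over 20 kb, and overlapped from 5 to 20 kb. Per 100 kb of gene interior there were 3.46 summits in both-end genes, 4.61 in end-only genes and 1.28 in start-only genes. These pooled values mix lengths, and the density fell with length. By length class it was 24.3, 8.96, 4.20, 3.59 and 2.30 in both-end genes. In start-only genes it was 10.0, 5.76, 3.05, 1.86 and 0.944, and in end-only genes 25.5, 10.6, 6.80, 4.35 and 2.52. In the shortest class the interior is short, so 26.4% rests on 33 of 125 genes.

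**Figure D4:**
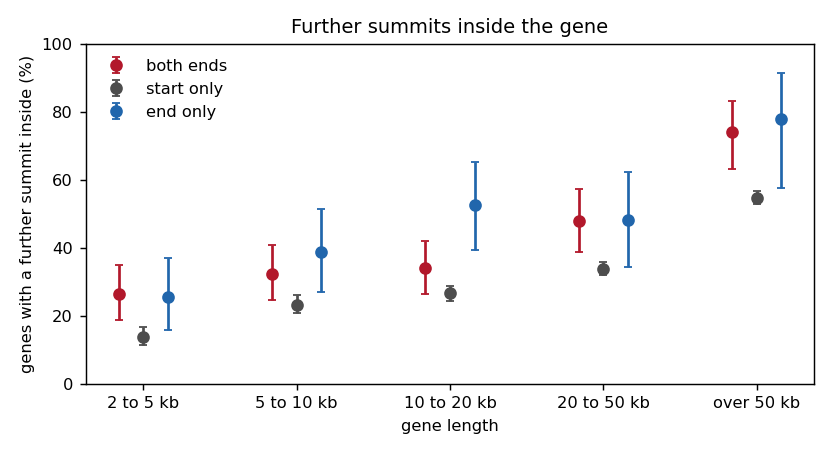
Percent of genes with at least 1 summit more than 1 kb inside both ends, by gene length class, with exact 95% binomial intervals, for both-end, start-only and end-only genes. Both-end genes lie above start-only genes in each class, at 74.1% against 54.8% over 50 kb, and their intervals overlap those of end-only genes in each class.

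Promoter sequence separated bound from unbound starts far more than both-end from start-only genes. Median CpG observed over expected was 0.760 (0.741 to 0.782, n = 575 genes with a promoter window) in both-end genes, 0.800 (0.795 to 0.805, n = 7699) in start-only genes, 0.262 in end-only genes and 0.242 in genes with neither. It exceeded 0.6 in 75.8% of both-end genes and 81.3% of start-only genes. Median GC content was 61.7% in both-end genes and 62.3% in start-only genes. The promoter window itself held a summit in 48.3% of both-end genes and 48.5% of start-only genes.

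Short motifs were counted on both strands of the 300-base windows. A match is a description of letters and not a binding site. One of the GATA hexamers spelled out above was found in 15.8% of both-end promoters, 15.6% of start-only promoters, 34.8% of promoters of genes with neither summit and 22.9% of all 13506 promoters. Promoters of genes with neither summit also had a lower median GC content, 50.0% against 61.7% in both-end genes. They held TATAAA, likewise mostly A and T, in 17.6%. The part of base composition in these shares was not tested. GGGCGG, the core of the GC box, was in 68.7% of both-end promoters, 70.6% of start-only promoters and 52.7% of all. CCAAT was in 42.3% of both-end promoters, 39.7% of start-only promoters and 39.2% of all, TATAAA in 5.91% of both-end promoters, 5.77% of start-only promoters and 10.3% of all, and CACGTG in 11.1% of both-end promoters, 11.0% of start-only promoters and 8.88% of all. For each of these motifs the both-end interval contained the start-only share.

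Genes of germ cell and pluripotency programmes were among the both-end genes in small numbers. Of 37 genes of naive pluripotency and primordial germ cells, 3 had summits at both ends (8.11%, 1.70 to 21.9), against 4.04% of all genes. Nanog, a homeobox factor of the pluripotent state (chr6:122707489-122714633), had summits 132 bases before its start and 560 bases past its end and 2 more inside. Gbx2, a homeobox gene of naive ESCs and early brain (chr1:89927962-89931176), had 2 at each end, the closest 12 bases before the start and 633 bases past the end. Elf3, an ETS family factor (chr1:135253574-135258472), had summits 17 bases before its start and 470 bases past its end and 1 inside. None of these 3 ends had another gene end within 1 kb. Of 73 genes of meiosis, the oocyte and piRNAs, 3 were both-end genes (4.11%, 0.856 to 11.5). Tex19.1, which restrains retrotransposons in germ cells (chr11:121146143-121148314), had summits 134 bases before its start and 140 bases past its end. Rec8, the meiotic cohesin subunit (chr14:55618002-55625395), had summits 178 bases into the gene and 644 bases past its end. Ipo4 runs in the opposite direction and ends there, so that same summit lay 639 bases inside the end of Ipo4. Prdm9, the methyltransferase that places meiotic recombination hotspots (chr17:15543072-15564374), had summits 36 bases into the gene and 936 bases inside its end.

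Among developmental regulators, 14 of 202 homeobox, forkhead, Sox, Pax, T-box and GATA genes were both-end genes (6.93%, 3.84 to 11.4), against 4.04% of all genes. That interval and those of the other lists in this paragraph contain the share over all genes. Cdx2, the caudal homeobox gene of trophectoderm and posterior body (chr5:147300900-147307249), had summits 295 bases into the gene and 233 bases past its end and 4 more inside. Pitx3, a homeobox gene of lens and dopaminergic neurons, had 5 summits in all. Sox6 was the longest both-end gene at 569905 bases, with summits 896 bases into the gene and 831 bases inside its end, both near the 1 kb limit. Of 80 WNT, Notch and retinoic acid genes, 7 were both-end genes (8.75%, 3.59 to 17.2). The receptor gene Notch1 had 6 summits, the Notch effector Hes7 had 5, and the WNT receptor genes Fzd7 and Fzd10 had 4 each. Fzd7 (chr1:59482147-59486955) had them 53, 1079, 3154 and 5731 bases from its start, the last 923 bases past its end. Of 72 BMP, TGF-beta and Smad genes, 3 were both-end genes (4.17%, 0.868 to 11.7). They were Smad7, the inhibitory Smad, with 11 summits, and Gdf1, a TGF-beta family ligand, and Bmp2k with 4 each. Bmp2k, a kinase gene, was placed there by its symbol. Cers1 is annotated from the same start as Gdf1 to nearly the same end, so both entries hold the same summits and each was counted as a both-end gene. Of 76 Klf, Sp and immediate early genes, 6 were both-end genes (7.89%, 2.95 to 16.4), among them Egr1 with 5 summits, Zfp36l2 with 4 and Klf16 and Dusp1 with 3 each. Of 465 genes of the Zfp list, which also holds Zbtb and Zscan genes, 21 were both-end genes (4.52%, 2.82 to 6.82). Zfp36l2 is counted in this list too. Zfp423, the longest of the 21 at 300244 bases, had 6 summits, and Zscan10, an ESC zinc finger gene, had 4.

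**Figure D5:**
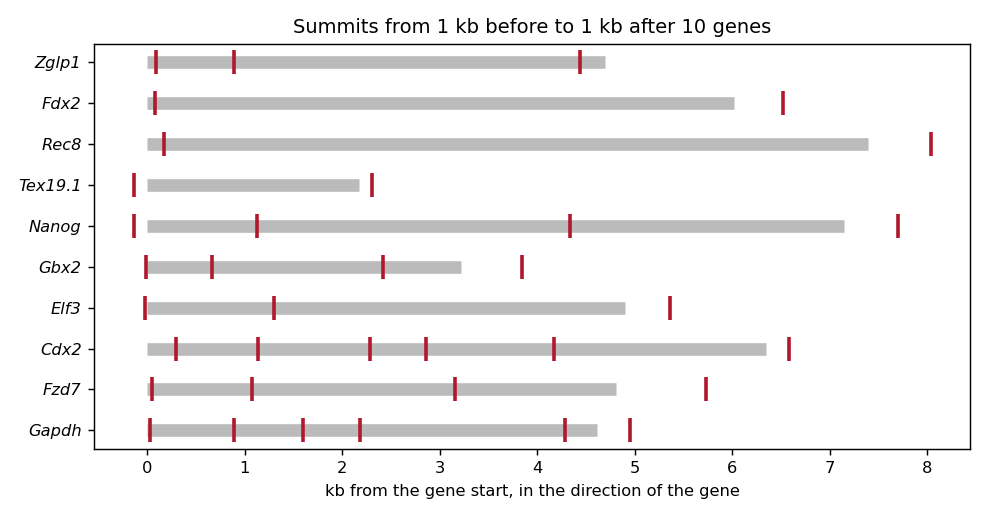
Summits (red ticks) from 1 kb before to 1 kb after 10 both-end genes (grey bars, drawn to scale), in kb from the gene start in the direction of the gene; Zglp1, Fdx2 and Gapdh were chosen after their values were seen. The end summits of Zglp1 (260 bases inside), Gapdh (closest 325 bases inside) and Gbx2 (closest 633 bases past the end) include ones within the gene. Those of Fdx2, Rec8, Tex19.1, Nanog, Elf3, Cdx2 and Fzd7 lie past the end.

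Of the 16 lists, 2 had an interval above the 4.04% of all genes, ribosomal protein genes and translation factor and proteasome genes. Olfactory and vomeronasal receptor genes had an interval below it, and those of the other 13 lists contained it. Of 157 cytosolic and mitochondrial ribosomal protein genes, 23 were both-end genes (14.6%, 9.52 to 21.2). These genes are short, with a median of 5107 bases, and among genes up to 10 kb the share was 22 of 123 ribosomal protein genes (17.9%, 11.6 to 25.8) and 342 of all 5301 genes (6.45%, 5.80 to 7.15). In that length range it was also 9 of 46 translation factor and proteasome genes (19.6%, 9.36 to 33.9), 5 of 27 WNT, Notch and retinoic acid genes (18.5%, 6.30 to 38.1) and 11 of 121 homeobox and related genes (9.09%, 4.63 to 15.7), and the intervals of these last 2 lists contained 6.45%. Rpl10a had 5 summits, 3 of them at its start, and Rpl3, Rpl32 and Rpl36 had 4 each. Of 123 translation factor and proteasome genes, 12 were both-end genes (9.76%, 5.14 to 16.4), including Eef2 and the initiation scaffold gene Eif4g1 with 5 summits each and the elongation factor gene Eef1a1 with 4. Eef1a1 had 3 summits at its start, the closest 44 bases into the gene, and 1 summit 990 bases past its end. Of 119 cell cycle genes, 8 were both-end genes (6.72%), including E2f1, a factor of the G1 to S transition, with 4 summits and the phosphatase gene Cdc25a with 3. Of 139 RNA polymerase, Mediator and general factor genes, 7 were (5.04%), of 173 splicing and RNA-binding genes, 8 were (4.62%), and of 88 chromatin methylation and Polycomb genes, 4 were (4.55%). In that last list 77 genes (87.5%) had a summit at 1 end only, against 54.5% of all genes. The same share was 89.9% in the RNA polymerase, Mediator and general factor list and 83.2% in the splicing and RNA-binding list. In the homeobox and related list it was 53.0%. Of 387 solute carrier genes, 12 were both-end genes (3.10%), and of 11 histone genes longer than 2 kb, H2az1 and H1f0 were. Of 293 olfactory and vomeronasal receptor genes, 0 were, which allows up to 1.25%, and 4 had a summit at 1 end.

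At the extremes, both-end genes ranged from 2 to 46 summits between 1 kb before and 1 kb after the gene, with a median of 3. Sfi1, a gene of 71498 bases for a centrin-binding protein of the spindle pole, had 46, of which 43 lay inside it and more than 1 kb from both ends. Ahdc1 followed with 15, the WNT5A receptor gene Ror2 with 13, Mideas with 12, and Cuedc1, Macrod1 and Smad7 with 11 each. No input values were set beside these counts, and how well reads map within Sfi1 was not tested. Ror2 (chr13:53109317-53286124) had 10 summits inside and more than 1 kb from both ends. Its closest start summit lay 84 bases before the start and its end summit 499 bases inside the end. The genes with the closest summits at both ends were Adam15, a membrane protease gene, with summits 2 bases past its start and 19 bases past its end, and Aprt, a purine salvage enzyme gene, with summits 12 bases before its start and 20 bases past its end. In Soga1, Atrip, Ccdc142 and Vps51 both distances were at most 40 bases. Among both-end genes with no other gene end within 1 kb of either end, of which there were 234 (30.2% of 775), the longest were Sox6, Zfp423 and Dym. Taok3, a kinase gene in that group, had summits 65 bases before its start and 15 bases past its end, in a gene of 154991 bases.

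At the 1 kb limit, the members just inside were Ehd2 (998 bases at the farther end), Lrfn1 (994) and Hyal1 (993), and the genes just outside were Il4i1b (1001), Ap2a1 (1002) and Zdhhc1 (1005). At the length limit, the shortest members were Fkbpl (2004 bases) and Spsb2 (2016 bases), and Kcna3 (1968 bases) and AI413582 (1960 bases) had summits at both ends but were too short to count.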

How the data were processed

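The values the authors deposited are peak summit positions in bases, 1 list for the whole series on build mm10, without height, score or library name. Per the submitters' processing notes, peaks were made on mm10 with MACS2 2.1.1.20160309 and HOMER 4.9.1 among the tools named, beside Bowtie 1.1.2 and SAMtools 1.3 as well as bedtools, with Picard 2.1.0, Trim Galore 0.4.1 and cutadapt 1.9.1 also listed. Their settings, the threshold and the libraries behind the list are not given in the sources used here. Each summit has 1 position, written in both columns, so counting from 0 or 1 moves a distance by at most 1 base.

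Gene starts and ends came from the RefSeq gene table and direction from the RefSeq promoter windows, both for GRCm38.p6. Promoter windows of chromosome 18 were not used here. Shares carry exact (Clopper-Pearson) 95% binomial intervals and medians carry order-statistic 95% intervals. No test was run, since the members were chosen by the summits and genes are not replicates. The members and the 16 gene lists were chosen with earlier results of these data known.

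Genes were named by rule: the 8 longest members, the 8 with most summits, the 6 closest at both ends, up to 4 of each list with most summits, the 8 longest with no other gene end near, and those at the limits. Others are said to be chosen after their values were seen. Counting was tested on simulated data. Alternatives covered the distance, the gene length, merging, the gene set and the neighbour definition. The software was Python 3.11.15 with SciPy 1.17.1, pandas 2.3.3, numpy 2.4.6 and, for figures, matplotlib 3.10.9.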

Additional observations from a re-analysis of the deposited data

Results flagged for a closer look

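Some summits and genes lay outside the comparison above. On chromosome Y there were 10 summits, and on the mitochondrial genome there were 5. Outside the protein-coding genes, 111 of 11306 long noncoding RNA genes longer than 2 kb (0.982%) had summits at both ends. No input values were set beside these counts.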

How the results depend on the processing

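No paired analysis was possible because the list names no library. Of 59 shares and medians under other settings, 16 stayed within the interval of the reported value and 43 left it, and of 8 counts of both-end genes 4 stayed within 1.5 times the reported count. The gene-side share of start summits in both-end genes was 58.6% (54.6 to 62.5) at 1 kb. At 250 bases it was 48.1% (36.7 to 59.6), an interval that contains both the 58.6% and an even split. Both-end genes were shorter than 1-end genes, had more neighbours at the end, had more summits inside and had a lower CpG ratio in all of the 6, 7, 6 and 3 settings that gave these values. Some of these differences lay within counting error. For summits inside, the both-end interval contained the 1-end share at 500 bases, at 250 bases and after merging. For the CpG ratio, it contained the 1-end median in the setting with no other gene end near.

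With summits within 500 bases of an end, 341 genes had both ends bound and with 250 bases 95 did. With 2 kb in genes longer than 4 kb, 1439 did. With no other gene end within 1 kb of either end, 234 did. In the settings with 500 and 250 bases, inside meant more than that distance from both ends instead of more than 1 kb. At 500 bases the median length of both-end genes was 10303 bases, the gene side held 54.1% of start summits, a further summit inside was present in 49.5% of both-end and 45.6% of 1-end genes, 21.3% of 1-end genes had another gene end near, and 97.8% of 1-end genes had the summit at the start. At 250 bases median length was 10487 bases in both-end and 23088 in 1-end genes, the gene side held 41.8% of end and 48.1% of start summits, an inside summit was present in 54.4% of both-end and 47.9% of 1-end genes, another gene end lay near in 54.4% and 22.0%, and the start held 98.2%. End summits in genes with a start summit were at 30.1% (500 bases) and 9.22% (250 bases) with another start near, and at 1.75% and 0.720% with none. These 4 values and the 3.29% below belong to alternatives chosen after seeing the data. In genes longer than 5 kb median length was 15595 bases in both-end and 28349 in 1-end genes, the start held 97.2% in 1-end genes, an inside summit was present in 37.7% and another gene end near in 18.2% of them, and ends with no neighbour held 3.29%. With no other gene end near, median length was 14480 bases in both-end and 29051 in 1-end genes, the start held 97.2%, the gene side held 50.0% of end and 64.0% of start summits, an inside summit was present in 47.3% of both-end and 37.2% of 1-end genes, and the CpG ratio was 0.740 in both-end and 0.779 in 1-end genes. That setting leaves no genes for the shares with neighbours. In promoter windows that hold a summit the ratio was 0.792 in both-end and 0.822 in 1-end genes. After merging summits within 1 kb, the gene side held 65.0% of start summits and an inside summit was present in 33.9% of both-end and 32.5% of 1-end genes. Protein-coding neighbours alone were near the end in 53.9% of both-end and 16.7% of 1-end genes, and any neighbour within 2 kb in 68.3% and 30.6%. Depth and threshold are unknown, so the absence of a summit at an end does not show absence of binding.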

Other observations

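Both-end genes were unevenly spread over chromosomes. Chromosome 17 had the highest share, with 71 of 948 genes (7.49%, 5.90 to 9.35), followed by chromosome 19 with 41 of 618 (6.63%), chromosome 11 with 81 of 1433 (5.65%) and chromosome 7 with 84 of 1588 (5.29%). Chromosome X had the lowest, with 7 of 816 genes (0.858%, 0.346 to 1.76), and also the lowest share of 1-end genes, 25.7%. Among genes with any bound end, those bound at both were 12.5% on chromosome 17 and 3.23% on X.

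Both-end genes lay in dense neighbourhoods. A median of 8 ends of other protein-coding genes (quartiles 4 and 12) lay within 50 kb of a both-end gene, against 4 for 1-end genes and 3 for genes with neither end bound. A median of 6 summits lay in the flanks between 1 and 50 kb from the gene for both-end genes, against 3 for 1-end genes and 1 for genes with neither. The group of 4 genes joined by shared end summits, named after its values were seen, comprised Lrrc14, Lrrc24, C030006K11Rik and Arhgap39 on chromosome 15.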
